A study of Caenorhabditis elegans with 60 samples.

Results

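Embryos that lack the Argonaute NRDE-3 were compared with wild-type embryos of Caenorhabditis elegans for trimethylation of lysine 9 on histone H3 (H3K9me3), measured by chromatin immunoprecipitation and sequencing. The mutant strain carries nrde-3(tm1116) on X, a deletion allele, and the wild type is N2 (Bristol). Material of both was chromatin from early embryos that had not reached the bean stage, from animals grown for 60 to 65 h after synchronization as first-stage larvae. Members were chosen by label from the table of counts per 500 bp window: H3K9me3 and input of nrde-3 replicates 1 to 3 and of N2 replicates 2 and 3. That makes 10 of the 30 libraries in the table, or 20 of the 60 deposited records, since each library was run more than once. Both libraries of N2 replicate 1 were left out because they behave as exchanged. The level that 1% of its windows exceed was 13.04 times the median window in the library labelled input and 1.72 times in the library labelled H3K9me3. In the other N2 replicates it was 1.71 and 1.74 in the inputs, and 19.4 and 22.99 in the H3K9me3 libraries.

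NRDE-3 binds small interfering RNAs in the cytoplasm of somatic cells and carries them into the nucleus, where they direct silencing of matching transcripts. H3K9me3 marks silent chromatin, and in worm embryos its deposition depends on the methyltransferases MET-2 and SET-25. It lies mostly on repeats, transposons and silenced genes, which are frequent on the arms of the autosomes and scarce in the gene-rich centres.

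Several properties of the libraries bear on every value. H3K9me3 libraries held 52541284 to 58541832 counts in nrde-3 and 65799118 to 65845682 in N2, and inputs held 48369402 to 62101882 in nrde-3 and 52613090 to 57607558 in N2. All were of 1 library series. The extraction protocol in the labels names an antibody against LEM-2 while the titles name H3K9me3, and the labels give both 2 and 3 replicates, so whether preparations came from separate cultures is uncertain. Whole embryos were used, so a mark lost in fewer cells and a weaker mark per cell cannot be told apart.

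The DNA of the strains was compared by sequencing depth. A window on X was picked for its low depth in the inputs labelled nrde3 and met2nrde3. No gene was assigned to it, so whether it holds the nrde-3 deletion was not tested. The X window at 371736 to 372235 (ce10), on the chromosome that carries the allele, had 0.23 to 0.24 of the N2 input depth in nrde-3 inputs and 0.58 to 0.77 of the N2 depth in nrde-3 H3K9me3 libraries. The double mutant met2nrde3, with met-2(n4256) on III and the same nrde-3 allele, was low there too. Its inputs had 0.19 to 0.21 of the N2 depth and its H3K9me3 libraries 0.26 to 0.47, so this window cannot tell the mutant strains apart. A pair of other stretches did not match between the library types. On III at 8376067 to 8377566, nrde-3 inputs had 0.06 of the N2 depth while nrde-3 H3K9me3 libraries had 1.31 to 2.69 of it. On V at 18443897 to 18465896, nrde-3 inputs had 0.99 to 1.02 of the N2 depth while nrde-3 H3K9me3 libraries had at most 0.01 of it. The libraries labelled met2nrde3 input showed the opposite at both, with 0.96 to 1.00 on III and 0.01 to 0.04 on V. The met-2 nrde-3 H3K9me3 libraries had 0.16 to 0.20 of the N2 depth on III and 0.26 to 0.34 on V. Whether the labels of these sets of inputs are exchanged was not tested. The results were therefore computed with the nrde-3 inputs as labelled and again with the met2nrde3 inputs (47874152 to 53336630 counts) in their place. A value for which no inputs are named is with the inputs as labelled. The stretches named here are outside the 199480 windows tested, which are covered evenly in all of these inputs.

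The mark was lost or reduced at 39 discrete loci in nrde-3, 12 of them on the left arm of chromosome II. Most large H3K9me3 domains held no called window and kept much of the mark. The 39 loci had a median level of 0.04 in nrde-3 and 2.15 in N2. Levels are log2 ratios of scaled H3K9me3 over scaled input, with 8 counts added to each, so 0 means as much DNA as in the input. The median in nrde-3 was 0.13 with the met2nrde3 inputs in place.

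By window, edgeR's quasi-likelihood test with Benjamini-Hochberg adjustment at 0.05 called 593 windows lower in nrde-3, which is 0.297% of those tested, and 25 higher, which is 0.0125%. With the met2nrde3 inputs in place it called 2252 windows lower, 1.13%, and 564 higher, 0.283%. Of these, 563 lower and 22 higher windows were called with both sets of inputs. The lower windows had a median level of 0.13 in nrde-3 and 1.65 in N2, and a median log2 change of -1.51. Their share was highest on the left arm of II, where 164 of 10147 windows (1.62%) were called, against 37 of 13694 (0.27%) on the right arm of V, the arm with the highest mean level in N2. This contrast was smaller with the met2nrde3 inputs, at 3.73% on the left arm of II, 3.08% on the left arm of III and 2.80% on the right arm of V. The number of lower windows was 64 without N2 replicate 3, 163 without N2 replicate 2, 314 and 349 without nrde-3 replicate 1 or 3, and 42936 without nrde-3 replicate 2. With the met2nrde3 inputs it was 522 without N2 replicate 3, 302 and 614 without nrde-3 replicate 1 or 3, and 45320 without nrde-3 replicate 2. The balance of the calls depended on the scaling. With library totals and no scaling factor the same test gave 1342 lower and 26855 higher windows, and the median change over all windows moved by 0.59.

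Loci were formed by joining called windows across at most 1 other window. Kept were those with at least 3 called windows and every nrde-3 preparation on 1 side of both N2 preparations with either set of inputs. The groups therefore do not overlap at any locus by construction. An adjusted p given for a locus or run is the median over its windows. With the inputs used to form a locus it is below 0.05 by construction, and it does not test the locus. The 39 lower loci measured 1500 to 15500 bp, with a median of 4000 bp and a sum of 176999 bp, and held 335 of the 593 lower windows. The other lower windows stood in 237 runs of fewer than 3 called windows. By place, 25 loci lay in autosome arms, 9 in autosome centres and 5 on X, where 54.7%, 27.6% and 17.7% of the windows tested lie. Of the 32612 windows at 1 or more in both N2 preparations, however, 88.7% lie in autosome arms. The number of loci in arms was not tested against either share. Chromosome II held 18 of the 39, with 12 in its left arm, 4 in its centre and 2 in its right arm. That left arm holds 5.09% of the windows tested. Its mean level in N2 was 1.16, against 0.68 over all autosome arms and 1.62 on the right arm of V. Its number of loci was not tested against its share of marked windows. In all, 14 loci lay within 50 kb of another, so they are not independent places. No higher locus passed.

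The largest decrease was on the left arm of II at 3302000 to 3312999, 11000 bp in which all 22 windows were called. The level there was 0.19, 0.38 and 0.14 in nrde-3 replicates 1 to 3, against 3.02 and 3.61 in N2 replicates 2 and 3. The groups were far apart, with a mean log2 change of -3.14 and a median adjusted p of 0.00124 over its windows (edgeR). The nrde-3 levels with the met2nrde3 inputs in place were 0.24, 0.45 and 0.21, and the change was -3.07 (edgeR adjusted p = 0.000102).

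A similar loss lay on the same arm at 1445008 to 1450507, with levels of 0.07, 0.54 and 0.17 in nrde-3 and of 3.17 and 3.502 in N2. The change was -3.12 (edgeR adjusted p = 0.000562), and nrde-3 replicate 2 was the highest of the mutant preparations. Only 8001 bp further on, at 1458508 to 1465007, the levels were 0.05, 0.51 and 0.07 in nrde-3 and 2.54 and 2.84 in N2. This neighbour changed by -2.52 (edgeR adjusted p = 0.00373). On the left arm of V at 1689469 to 1695968 the level was close to that of the input in every mutant preparation, at -0.11, 0.13 and 0.06 in nrde-3 and 2.78 and 3.09 in N2 (change -2.96, edgeR adjusted p = 0.000175).

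Isolated losses lay outside the arms. In the centre of I at 7778468 to 7783467 the levels were -0.39, -0.32 and -0.12 in nrde-3 and 2.20 and 2.23 in N2. All 10 windows of this locus were called, the change was -2.55 and the adjusted p was 6.98e-05 (edgeR). In the middle of X at 11439188 to 11442187 the levels were -0.07, 0.14 and 0.02 in nrde-3 and 2.68 and 3.03 in N2, a change of -2.87 (edgeR adjusted p = 0.00171). The longest locus, near the right end of X at 16877665 to 16893164, had levels of 0.06, 0.31 and 0.17 in nrde-3 and of 2.27 and 2.36 in N2, a change of -2.16 (edgeR adjusted p = 0.014).

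Some strongly marked loci lost only a portion of the mark. On the left arm of III at 178103 to 180602 the levels were 1.56, 2.37 and 1.06 in nrde-3 and 4.58 and 5.02 in N2. The change of -3.07 was as large as at the loci above (edgeR adjusted p = 0.0244), yet every nrde-3 preparation stayed above 1. On the left arm of II at 1819006 to 1821505 the preparations varied, at 0.69, 1.59 and 0.47 in nrde-3 and 3.49 and 4.14 in N2, with a change of -2.87 (edgeR adjusted p = 0.0278). At 2091505 to 2095504 on that arm the levels were 0.42, 0.97 and 0.31 in nrde-3 and 2.92 and 3.51 in N2 (change -2.67, edgeR adjusted p = 0.0136).

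A second locus on the left arm of V was among the 10 largest, and the other named loci had the largest change of their arm or centre. On the left arm of V at 6038450 to 6043449 the levels were -0.33, -0.46 and -0.15 in nrde-3 and 1.90 and 2.16 in N2. On the right arm of III at 12386050 to 12390049 they were -0.17, -0.01 and -0.01 in nrde-3 and 2.03 and 2.28 in N2. With the inputs as labelled no mutant preparation was above the input level at either, and with the met2nrde3 inputs replicate 1 stood at 0.01 at the locus on III.

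On the right arm of II at 13469956 to 13479455 the levels were -0.04, 0.08 and 0.07 in nrde-3 and 2.11 and 2.39 in N2. On the left arm of I at 2147492 to 2155491 they were 0.01, 0.05 and -0.02 in nrde-3 and 2.10 and 2.31 in N2. These loci lay close to the input level in every mutant preparation. In the centre of IV at 11613294 to 11618793 the levels were -0.16, 0.06 and 0.07 in nrde-3 and 2.07 and 2.19 in N2, and a further locus of 3000 bp ended 2501 bp before it.

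In the centre of II at 7081484 to 7086482 the levels were -0.17, 0.11 and 0.01 in nrde-3 and 1.79 and 2.33 in N2. On the right arm of IV at 15646777 to 15650776 they were 0.01, 0.48 and 0.01 in nrde-3 and 1.64 and 2.12 in N2. The smallest named loss, in the centre of V at 13646418 to 13649417, had levels of -0.27, -0.19 and 0.01 in nrde-3 and of 1.33 and 1.57 in N2. The changes of these 8 loci ranged from -2.38 to -1.63, with adjusted p from 0.000105 to 0.0146 (edgeR). At the 18 loci described so far, the met2nrde3 inputs moved no nrde-3 level by more than 0.22 and no change by more than 0.11, and adjusted p ranged from 1.77e-06 to 0.00488 (edgeR).

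**Figure D1:**
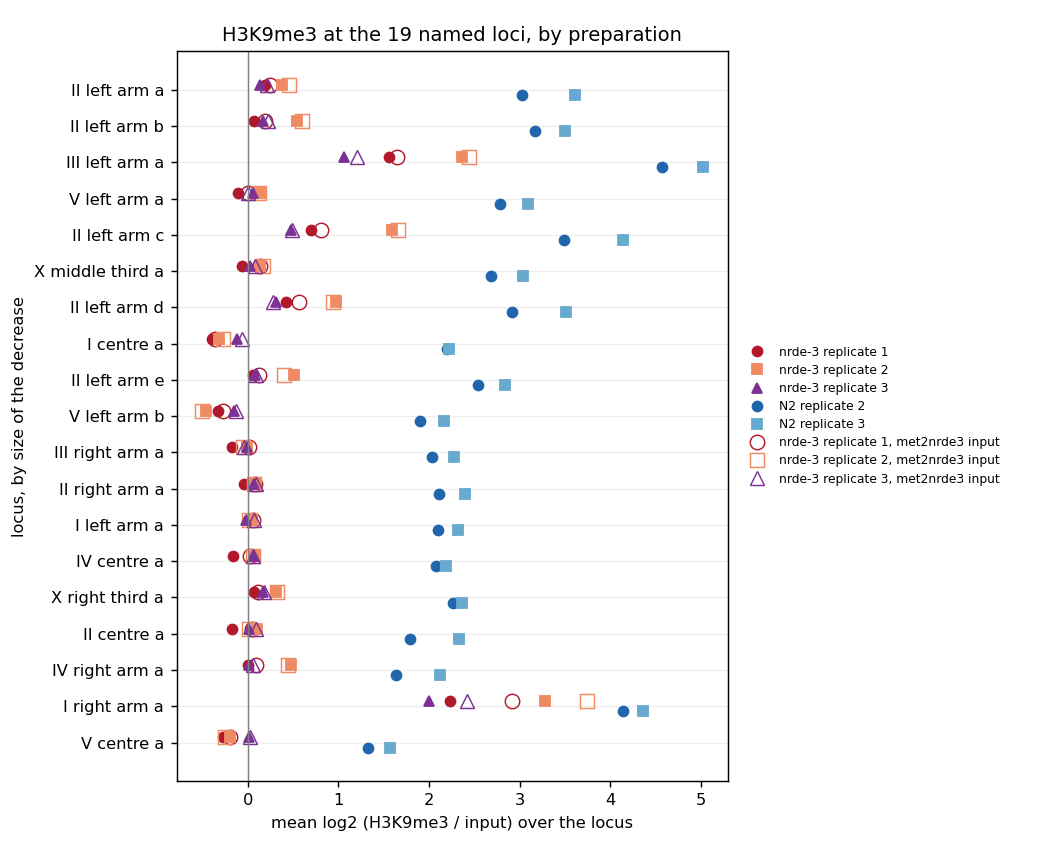
Level of H3K9me3 over input (log2, x axis) at the 19 named loci (y axis), with 1 point per preparation. Red, orange and purple points are nrde-3 replicates 1 to 3, blue points are N2 replicates 2 and 3, and open symbols are nrde-3 with the met2nrde3 inputs in place. Every nrde-3 point lies left of both N2 points, and most lie near 0, whereas at III left arm a and I right arm a all nrde-3 points are above 1.

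The locus on the right arm of I at 15060437 to 15062936 differed from the rest. Its levels were 2.23, 3.27 and 2.00 in nrde-3 and 4.14 and 4.36 in N2, a change of -1.65 (edgeR adjusted p = 0.0357). Its nrde-3 levels with the met2nrde3 inputs in place were 2.91, 3.74 and 2.42, the change was -1.12 and the adjusted p was 0.0819 (edgeR). Input depth there was 53.1 times that of the median window, and 90.3 times at the neighbouring lower locus, which also missed the threshold with these inputs (change -1.06, edgeR adjusted p = 0.0707). The other 37 loci passed with both sets of inputs, and their input depth was 0.761 to 1.86 times that of the median window. The right end of chromosome I is known to hold the tandem copies of the ribosomal RNA genes.

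At most of the 39 loci little of the mark was left in any mutant preparation. The median level was -0.04, 0.21 and 0.05 in nrde-3 replicates 1 to 3, and 2.03 and 2.28 in N2 replicates 2 and 3. All 3 nrde-3 preparations were below 0.5 at 27 loci and below 1 at 35, with either set of inputs. Mean changes ranged from -3.14 to -1.31, and with the met2nrde3 inputs in place from -3.07 to -1.06. Single preparations carried part of the calls. In all, 6 of the 39 loci were still called without N2 replicate 3, 14 without N2 replicate 2 and 17 without nrde-3 replicate 1, against 39 and 37 without nrde-3 replicate 2 or 3. These numbers were 17, 33, 16, 39 and 37 with the met2nrde3 inputs in place.

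With the met2nrde3 inputs in place, 116 lower loci passed, of which 36 overlapped the loci above, or 37 of the 39. The 80 further loci were weaker, with a median level of 0.34 in nrde-3 and 1.22 in N2 and a median change of -0.92. They were also lower with the inputs as labelled, all 80 of them, with a median change of -0.91 there and a median adjusted p per locus of 0.0344 to 0.217 (edgeR).

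Windows beside the loci were lower in nrde-3 as well, as marked windows were in general. In the 5 kb on either side the median level was 0.32 in nrde-3 and 1.26 in N2, and in the nearest 1 kb it was 0.34 and 1.41. These 5 kb flanks held called windows at 18 loci, and without those windows both medians were the same. The median difference was then -0.85 at 5 kb and -1.13 at 1 kb, or -0.81 and -1.06 with the met2nrde3 inputs. Over all windows at 1 to 1.5 in 1 N2 preparation the median change was -0.80, -0.27 and -0.87 in nrde-3 replicates 1 to 3, so a decrease of the flanks apart from this broader one was not tested. At 22 loci the 5 kb flanks stood at 1 or more in N2. From outside to inside, the level was higher in N2 and lower in nrde-3, with edges that the calls had set. At 0.75 kb outside the edge the mean level over both edges was 0.55, 0.92 and 0.43 in nrde-3 and 1.58 and 1.80 in N2, and at 0.75 kb inside it was 0.16, 0.47 and 0.19 in nrde-3 and 2.09 and 2.44 in N2. The nrde-3 levels with the met2nrde3 inputs were 0.63, 0.95 and 0.44 outside and 0.26, 0.49 and 0.25 inside.

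**Figure D2:**
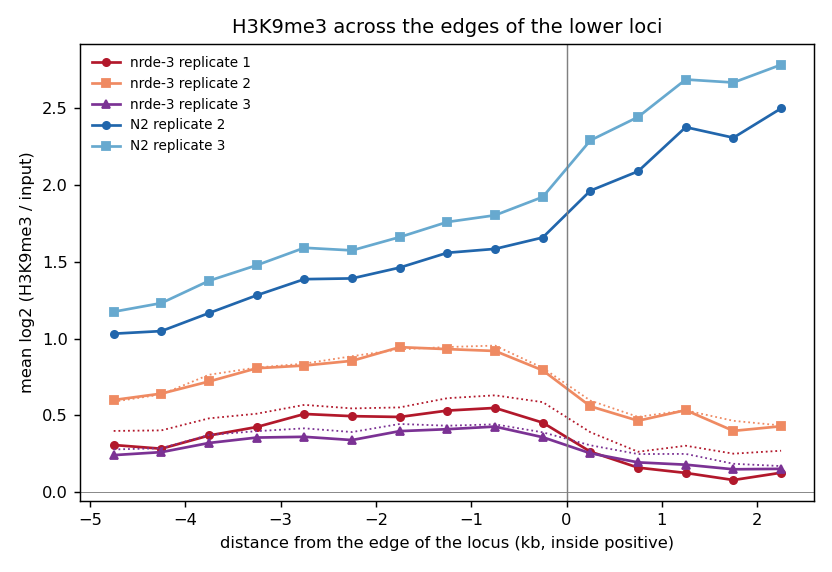
Mean level of H3K9me3 over input (log2, y axis) against distance from the edges of the lower loci (kb, x axis, inside positive), averaged over both edges of the 39 loci, of which fewer reach the innermost points. Solid lines are the 3 nrde-3 and the 2 N2 preparations, and dotted lines are nrde-3 with the met2nrde3 inputs in place. The edges were set by the calls themselves: the nrde-3 lines lie below both N2 lines at every distance, and the gap widens inside the edge.

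Most strongly marked chromatin stayed marked in nrde-3, at a lower level than in N2. Runs of at least 10 windows, across gaps of 1, at 3 or more in both N2 preparations numbered 215, and 210 of them held no called window. The 39 loci were chosen by calls and these 210 runs by their absence. Part of the contrast between them follows from that choice. Those 210 runs covered 2719494 bp, 188 lay in autosome arms and 66 in the right arm of V alone. Their mean level had a median of 2.77 in nrde-3, with a range of 1.41 to 4.10, and of 3.88 in N2, with a range of 3.30 to 5.32. The median change was -1.001, with a range of -1.89 to -0.71, and 209 runs kept a mean level of at least 2 in nrde-3. The median in nrde-3 was 2.82 with the met2nrde3 inputs, the range was 1.46 to 4.09, and 1 of the 210 runs held a called window.

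The longest of these runs, 154000 bp on the right arm of V at 17463901 to 17617900, had levels of 3.03, 4.02 and 2.56 in nrde-3 and of 4.23 and 4.496 in N2. Those at 16983903 to 17095402 and at 17271402 to 17377401, next in length, had 2.94, 3.91 and 2.48, and 2.91, 3.89 and 2.42, in nrde-3, and 4.12 and 4.38, and 4.03 and 4.33, in N2. In each of them nrde-3 replicate 2 was the mutant preparation closest to N2, and replicate 3 the farthest. The changes in these 3 runs were -1.04, -1.03 and -0.99, with median adjusted p of 0.32, 0.323 and 0.336 (edgeR), and the met2nrde3 inputs moved no nrde-3 level in them by more than 0.12. The run with the lowest nrde-3 level, named after its values were seen, lay on the right arm of V at 19286894 to 19292393, with 1.36, 2.04 and 0.84 in nrde-3 and 3.16 and 3.57 in N2 (edgeR adjusted p = 0.114).

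**Figure D3:**
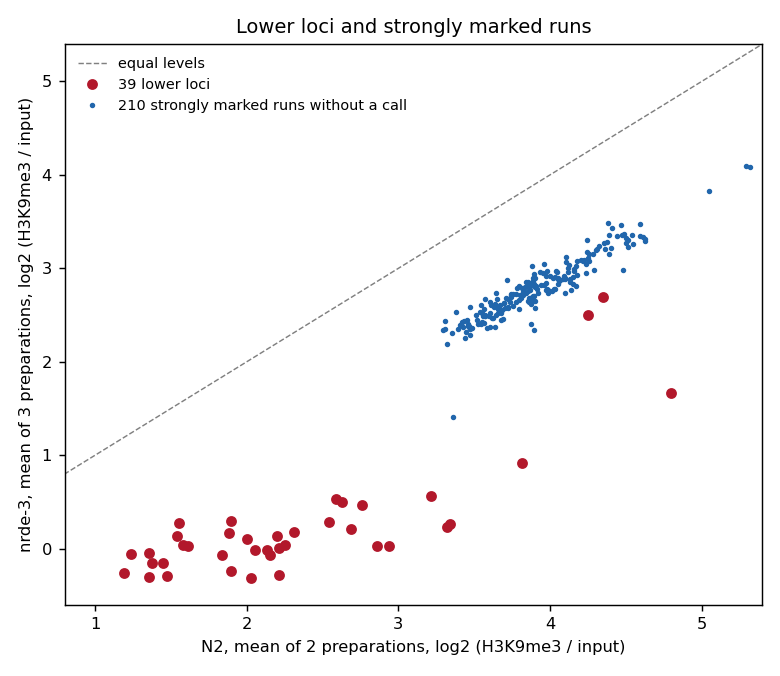
Mean level in nrde-3 (3 preparations, y axis) against mean level in N2 (2 preparations, x axis), as log2 of H3K9me3 over input. Red points are the 39 lower loci and blue points the 210 strongly marked runs without a call. The runs form a band below the line of equal levels, at 1.41 to 4.10 in nrde-3, while at 35 of the loci all 3 nrde-3 preparations are below 1. Loci were chosen by calls and runs by their absence, so part of this contrast follows from the choice.

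A decrease over all marked windows was also present, and its size differed between mutant preparations. In windows at 2 or more in 1 N2 preparation, compared with the other N2 preparation, the median log2 change was -1.23, -0.28 and -1.59 in nrde-3 replicates 1 to 3, a mean of -1.03 ± 0.68 (SD, n = 3). It was -1.12, -0.29 and -1.59 with the met2nrde3 inputs in place. The contrast of the libraries differed in the same order: the SD of the log2 ratios over all windows was 0.69, 0.98 and 0.54 in nrde-3 and 1.05 and 1.17 in N2. Once the ratios of every preparation were scaled to an SD of 1, the mean over the marked windows was 0.02 with the inputs as labelled and 0.07 with the met2nrde3 inputs. A broad decrease of the mark and a lower contrast of the mutant preparations cannot be told apart here. On the divided values limma still called 298 lower windows, and 32 of the 39 loci were still called, or 36 with the met2nrde3 inputs.

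In nrde-3 replicates 1 and 3 the decrease was larger where the level in N2 was higher, whereas in replicate 2 it was nearly flat. In windows at 1 to 1.5 in one N2 preparation the median change was -0.80, -0.27 and -0.87 in nrde-3 replicates 1 to 3, and in windows at 4 to 4.5 it was -1.36, -0.32 and -1.82. In the classes between them replicate 2 stayed at -0.28 to -0.26. The medians with the met2nrde3 inputs were -0.72, -0.28 and -0.87 at 1 to 1.5, and -1.24, -0.32 and -1.82 at 4 to 4.5. Windows below 0 in N2 changed the other way, by 0.17, 0.06 and 0.24. Near-complete loss was rare among strong windows. Of 7829 windows at 3 or more in both N2 preparations, 38 (0.485%) were below 1 in all 3 nrde-3 preparations and 29 (0.37%) below 0.5. In nrde-3 replicate 2 alone, 38 of these windows were below 1, against 66 in replicate 1 and 90 in replicate 3.

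**Figure D4:**
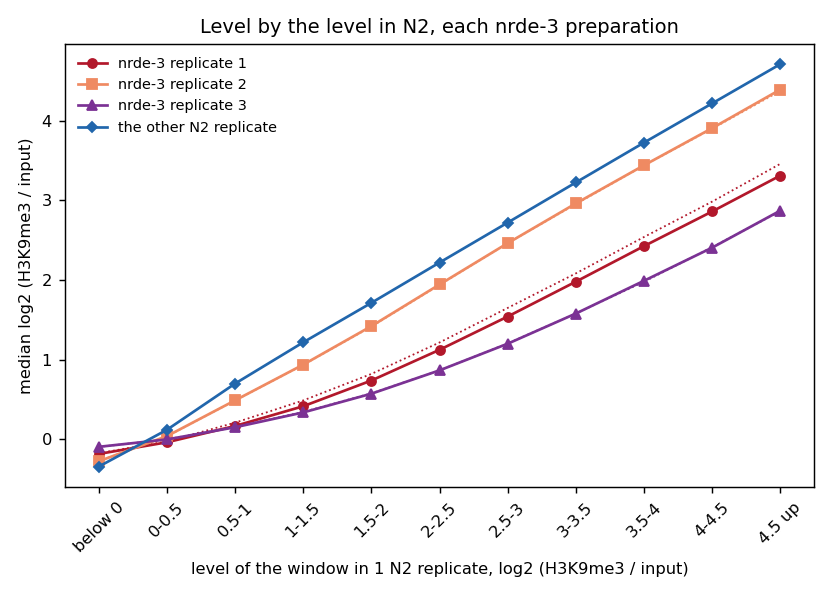
Median level (log2 of H3K9me3 over input, y axis) of windows grouped by their level in 1 N2 preparation (x axis), averaged over both choices of that preparation. Lines are the 3 nrde-3 preparations and the N2 preparation not used for grouping, and dotted lines are nrde-3 with the met2nrde3 inputs in place. In windows at 4 to 4.5 the medians were 2.86, 3.91 and 2.41 in nrde-3 replicates 1 to 3 and 4.22 in the other N2 preparation, so replicate 2 stayed closest to N2.

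Over the parts of the chromosomes the map of nrde-3 was flatter than that of N2. The mean level in autosome arms was 0.33, 0.54 and 0.25 in nrde-3 and 0.64 and 0.73 in N2, a difference of -0.31. In the centres it was -0.16, -0.23 and -0.06 in nrde-3 and -0.28 and -0.34 in N2, a difference of 0.16. The groups overlapped in neither, and p was 0.2 for both in an exact permutation test (two-sided), the smallest p that 3 against 2 preparations allow. On X the difference was 0.03, with 0.03, 0.06 and 0.05 in nrde-3 and 0.03 and 0.01 in N2 (exact permutation p = 0.2), and with the met2nrde3 inputs the groups overlapped (0.02, exact permutation p = 0.4).

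These signs depend on the scaling, so they are read against the median change over all windows. That median was 0.00 with TMM, -0.04 with DESeq2 size factors, 0.59 with library totals and -0.22 with scaling to the autosome centres. Relative to it the arms stood at -0.31, -0.31, -0.36 and -0.30, and the centres at 0.16, 0.16, 0.11 and 0.18. X stood at 0.02, 0.03, -0.03 and 0.04. With TMM all 10 arms were lower and all 5 centres higher in nrde-3, with either set of inputs, while library totals made the arms together higher and centre scaling made the centres together lower.

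The right arm of V had the largest difference, with 0.95, 1.40 and 0.76 in nrde-3 and 1.53 and 1.72 in N2, and with 0.96, 1.39 and 0.76 in nrde-3 with the met2nrde3 inputs. The right arms of II and III had the smallest of the arms. On the right arm of II the means were 0.01, 0.09 and 0.01 in nrde-3 and 0.12 and 0.13 in N2. The groups did not overlap in 16 of 18 parts (arms and centres of the autosomes and 3 equal parts of X), nor in 17 with the met2nrde3 inputs, and no adjusted p was below 0.225 or 0.212 (exact permutation tests over 18 parts). The parts with overlap were the left arm of V and the left part of X.

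**Figure D5:**
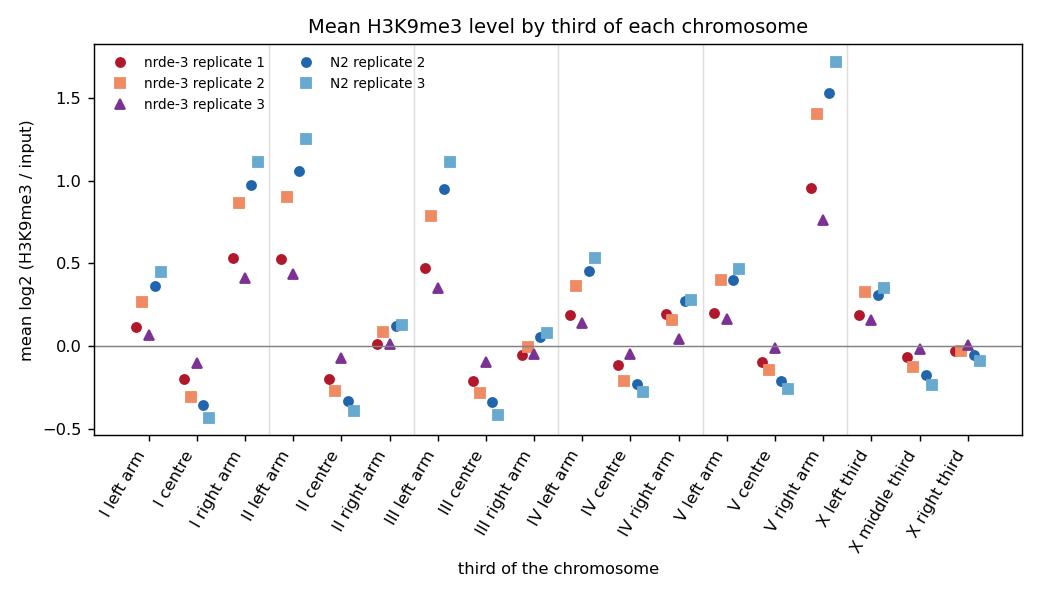
Mean level of H3K9me3 over input (log2, y axis) in each of 3 equal parts of each chromosome (x axis), with 1 point per preparation and TMM scaling. Red, orange and purple points are nrde-3 replicates 1 to 3 and blue points N2 replicates 2 and 3. Arms are lower and centres higher in nrde-3, and nrde-3 replicate 2 lies nearest N2 in most parts.

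Windows that were higher in nrde-3 were few and carried little mark in either strain. The 25 higher windows had mean levels of -0.33 to 0.24 in nrde-3 and of -1.27 to -0.63 in N2, with a median change of 0.96, and 20 of them lay in autosome centres, which hold 27.6% of the windows tested. Their number was 58, 5746 and 13 without nrde-3 replicate 1, 2 or 3, and 3 and 0 without N2 replicate 2 or 3 (edgeR, with 5651 higher windows at an unadjusted p below 0.05 in the last). With the met2nrde3 inputs in place the number was 54, 10487 and 109 without nrde-3 replicate 1, 2 or 3 and 33 without N2 replicate 3, and 384 of the 564 higher windows lay in the centres, and 5 of the 564 reached a level of 1 in nrde-3. Library totals raised the count of higher windows to 26855, and scaling to the autosome centres lowered it to 1. Of the 5 higher loci that passed only with the met2nrde3 inputs, the largest was on X at 373736 to 376735, on the same side of the chromosome as the window that is low in nrde-3 DNA and next to it. With these inputs its levels were 1.60, 2.45 and 0.99 in nrde-3 and 0.14 and 0.20 in N2, a change of 1.63 (edgeR adjusted p = 0.0389). With the inputs as labelled the change was 1.59 (edgeR adjusted p = 0.0998).

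The double mutant met-2 nrde-3 was low at most of the 39 lower loci, and also over much of the other marked chromatin. All 3 of its H3K9me3 libraries were below 0.5 at 36 loci with the inputs labelled met2nrde3, and at the same number with those labelled nrde3. Outside the loci, 32286 windows were at 1 or more in both N2 preparations. With the inputs labelled met2nrde3, 66.8% of them were below 0.5 in all 3 libraries. That share counts single windows, whereas loci and runs were judged by their means, so the measures are unlike. By their means, 85 of the 210 strongly marked runs without a call were below 0.5 in all 3 libraries with these inputs. The other 3 loci stood at 1.86, 1.64 and 2.16 in the centre of II (7081484 to 7086482), at 2.04, 1.84 and 2.26 on the right arm of I (11897950 to 11899449), and at 0.995, 1.08 and 1.20 on the left arm of II (3445999 to 3449498). In nrde-3 those 3 loci had mean levels of -0.02, 0.03 and 0.30. The lin-61 strain, a mutant of an MBT-domain chromatin protein, came from another library series. All 3 of its preparations were below 0.5 at 13 of the 39 loci and at 1 or more at 3. Counted as single windows, 19.6% of those 32286 were below 0.5 in all 3. The difference between the genotypes was not tested, and the series cannot be told apart from the lin-61 genotype.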

How the data were processed

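The deposited table holds raw counts per consecutive window of 500 bp on ce10, 1 column per library; the authors' aligner and counting rules are not given in the sources used here. It has 200579 windows, and all 30 library totals are even, without a statement on whether both ends of a fragment were counted. Per the labels' protocols, 40 µg of chromatin were incubated with 3 µg of antibody, and libraries were amplified in 12 cycles and read as pairs of 50 nt. Amplified reads without molecular identifiers are not independent molecules.

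Tested windows had a mean input count of at least 10 and mean input levels within 1.5-fold between the columns labelled nrde3, met2nrde3 and N2, 199480 in all. edgeR 4.0.16 (R 4.3.3) was run with TMM factors, 1 group per genotype and library type, and the contrast of H3K9me3 minus input in nrde-3 minus the same in N2; p-values were adjusted over the whole set and called below 0.05. They rest on a spread pooled over input and H3K9me3 libraries, with no term that ties a library to its own input. Neighbouring windows are not replicates. A locus was called where the median adjusted p over its windows was below 0.05. Named are the 10 largest lower loci, the largest of each autosome arm and centre and of X, the longest, and the 3 longest strongly marked runs without a call; up to 5 higher loci would have been named had any passed. Each autosome was cut into 3 equal parts, a left arm, a centre and a right arm. Alternatives included DESeq2 1.42.0 and limma 3.58.1.

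Counts were simulated with the common dispersion of this comparison (0.0205 with the inputs as labelled). Among 199480 windows, 19 of 100 changed by 2-fold and 100 of 100 changed by 4-fold were recovered, with 10 false calls. With the met2nrde3 inputs these numbers were 15, 100 and 7. Input and H3K9me3 libraries share this dispersion, so it does not hold the differences in contrast between the mutant preparations. Recovery and false calls at marked windows were therefore not measured by it. In the data, the run on V at 19286894 to 19292393 had a mean log2 change of -1.89 and 0 of its 11 windows called. The members, rules and lists were chosen with earlier results of these data known. Genes were not assigned to windows, because the annotation at hand is of another build than the table.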

Additional observations from a re-analysis of the deposited data

Results flagged for a closer look

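In N2 replicate 1, whose libraries are in no comparison above, the mean log2 ratio over the 39 lower loci was -1.59 as labelled, below 0 where both other N2 preparations were at 0.99 or more.

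In the met-2 nrde-3 double mutant, also outside the comparison, 2 of the 39 lower loci had levels of 1 or more in all 3 H3K9me3 libraries, although nrde-3 was near the input level there.

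The longest stretch left out for uneven input, V at 2347466 to 2562964, had 2.64 times the depth of the median window in N2 input. In nrde-3 inputs it had 0.43 to 0.47 times, and in nrde-3 H3K9me3 libraries 0.44 to 0.50 times, against 3.16 and 3.51 times in N2 H3K9me3 libraries. Relative to N2, nrde-3 depth there was 0.17 to 0.18 in inputs and 0.16 to 0.19 in H3K9me3 libraries. Depth was thus lower to a similar degree in both library types, and a change of the mark there was not tested.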

How the results depend on the processing

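Counts are given as lower and higher windows, against 593 and 25 as reported. The met2nrde3 inputs gave 2252 and 564, and N2 replicate 1 included as labelled 0 and 0 in edgeR, where 3050 and 1886 had an unadjusted p below 0.05. Library totals gave 1342 and 26855, scaling to the autosome centres 971 and 1, the DESeq2 Wald test 9144 and 147, limma 486 and 153, and limma on ratios divided by the SD 298 and 8. No filter on input coverage gave 746 and 50. Fits that shared the spread of more libraries gave 8158 and 564 (series of N2) and 9336 and 288 (all but N2 replicate 1). Windows of 2 kb gave 646 and 109, and a minimum absolute log2 change of 1 gave 496 and 5. The replicate number as a block gave 539 and 28, and a block per preparation 1503 and 176. Same-numbered preparations deviated with r = -0.41 and -0.18. With only 2 N2 preparations the deviations of 1 mirror those of the other, so these values cannot decide whether the numbers pair preparations. With the replicate number as a block, 35 of the 39 loci kept their call, all 19 named among them. Leaving out 1 preparation gave 64 to 42936 lower and 0 to 5746 higher windows, with 64 and 0 without N2 replicate 3, 163 and 3 without N2 replicate 2, 42936 and 5746 without nrde-3 replicate 2. With the met2nrde3 inputs the ranges were 302 to 45320 and 33 to 10487, limma gave 1003 lower windows, and limma on divided ratios 511 and 10. The lone N2 preparation in such fits is assumed to vary like nrde-3.

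The arm difference of -0.31 became 0.0759 with N2 replicate 1 included and 0.23 with library totals, the centre difference of 0.16 became -0.0397 with centre scaling, and the X difference of 0.03 became -0.0110 with DESeq2 factors and -0.18 with centre scaling. Leaving out 1 preparation gave -0.40 to -0.22 in arms, 0.13 to 0.21 in centres and 0.02 to 0.05 on X. The change over marked windows of -1.03 became 0.0216 after division by the SD, or 0.0722 with the met2nrde3 inputs, and was -1.41 to -0.73 when 1 nrde-3 preparation was left out. With N2 replicate 1 included, 0 of the 39 loci passed, and the locus on I at 15060437 became higher, at 1.21. The other alternatives with the inputs as labelled left the 19 named loci lower in nrde-3, as did the met2nrde3 inputs alone. For fits that leave out a preparation this follows from how the loci were chosen. For division by the SD with the met2nrde3 inputs the direction at each named locus is not given. The cause of these differences was not tested. At this depth and the common dispersion, few 2-fold changes of a single window were recovered from simulated counts. A window that is not called is therefore not shown to be equal.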

Other observations

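Further stretches outside the windows tested differed in input depth between the columns labelled N2, nrde3 and met2nrde3, so no level of the mark is given for them. At V 18443897 to 18465896 the H3K9me3 depth in N2 was 22.1 and 26.5 times that of the median window, and nrde-3 H3K9me3 libraries had at most 0.02 times. The inputs labelled nrde3 had 0.99 to 1.02 times the N2 depth there, and those labelled met2nrde3 0.01 to 0.04 times. On X at 2932225 to 2951224 nrde-3 inputs had 1.93 to 1.96 times the N2 depth, and nrde-3 H3K9me3 libraries had 2.41 to 3.48 times. On X at 17651662 to 17665661 nrde-3 inputs had 4.17 to 4.39 times the N2 depth while nrde-3 H3K9me3 libraries had 1.22 to 1.77 times. The met2nrde3 inputs had 0.99 to 1.04 times the N2 depth there, and the met-2 nrde-3 H3K9me3 libraries 7.36 to 8.63 times.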
